A study of Mus musculus with 10 samples.

Results

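The nuclear genes of the mitochondrial respiratory chain and of ATP synthase were followed in single mouse embryos with and without Klf5. Members were the genes whose only platform symbol began with Nduf, Uqcr, Cox4 to Cox8 or Atp5, or was Sdha, Sdhb, Sdhc, Sdhd, Cyc1 or Cycs. They numbered 92 of the 16936 genes with a single symbol, and each was read from the probe set with the highest mean intensity over the 10 arrays. The embryos were taken from the oviduct at embryonic day 3.0 (E3.0). They were 5 wild-type (WT) embryos and 5 Klf5 knockout (KO) embryos, each on 1 Affymetrix array, named here WT1 to WT5 and KO1 to KO5 after the labels. The strain, the allele, the sex and the litters of the embryos are not stated in the labels. The p-values set the genotype difference against the spread among individual embryos of a genotype. Whether embryos of a genotype share a litter is unknown, and the p-values take no account of it. Whether a lower value of a transcript came from fewer cells of a type or from less RNA per cell cannot be told apart in whole embryos.

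The respiratory chain passes electrons from NADH (complex I) and succinate (complex II) through complex III and cytochrome c to complex IV, where they reduce oxygen. Complexes I, III and IV pump protons across the inner mitochondrial membrane, and ATP synthase uses the return flow to make ATP. Most subunits are encoded in the nucleus and a few in mitochondrial DNA. Before implantation the mouse embryo draws on pyruvate and oxidative phosphorylation, and its mitochondria mature as it approaches the blastocyst. Klf5 is a zinc-finger transcription factor that serves the trophectoderm and the inner cell mass of the early embryo.

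Levels are given as log2(intensity + 16), and a difference is KO minus WT on that scale. A probe set was tested if its mean level reached the 40th percentile, 5.55. Of the 92 members, 89 were tested (96.7%, against 73.9% of all genes). They were 33 of 34 for complex I, all 8 assembly factors of complex I (Ndufaf genes), all 4 for complex II, all 9 for complex III, cytochrome c, 17 of 19 for complex IV and all 17 for ATP synthase. Ndufb4, Cox4i2 and Cox7b2 lay under that level. The 5 KO arrays read 14.0 to 49.2 units for the brightest Klf5 probe set and the WT arrays 1100 to 4180, and this difference passed the test (-6.04, adjusted limma p 0.000162). A second Klf5 probe set read 0.71 higher in KO embryos (adjusted p 0.248), and the labels do not say which exons the allele lacks. Markers of cumulus and granulosa cells, oviduct epithelium, blood and oocyte together summed to 914 to 1090 units per array. The 10 markers of the embryo's own lineages did not move one way. The keratins Krt8 (-2.94, adjusted p 0.00118, past the threshold) and Krt18 (-2.20, adjusted p 0.0541) were lower in KO embryos. Pou5f1 (-0.29), Cdx2 (-0.28) and Sox17 (-0.02) also had lower KO means. The 5 others, Sox2 (1.06), Pdgfra (1.03), Nanog (0.91), Gata3 (0.47) and Gata6 (0.39), had higher KO means. WT4 and WT5 held the lowest values of each of these 5. Of the 10 markers only Krt8 was called. The part of all these markers in the results below was not tested. The arrays also fell into sets by the bacterial bioB spike-in control. It was high on WT1, WT2, WT3, KO1 and KO2 (8.36 to 8.96) and low on WT4, WT5, KO3, KO4 and KO5 (6.16 to 6.69), and both sets hold both genotypes.

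No member passed the test of genotype. The threshold was an adjusted p of 0.05 over all 23174 tested probe sets, of which 85 (0.367%) passed, and the lowest adjusted p among members was 0.127. At an unadjusted p under 0.05, 9 of the 89 members were higher in KO embryos and 3 lower, where 5.36% and 5.78% of all 12518 genes were. The 5 KO values lay wholly above the 5 WT values for 3 members, Ndufc2, Cox6a1 and Cox6c (background 1.12% of genes), and wholly below for 0 (background 1.65%). Most differences were small: 64 members had a higher mean in KO and 25 a lower one (71.9% higher, against 48.7% of all genes), with a median of 0.11 (all genes -0.01) and a range of -0.37 to 0.99. The 95% interval lay within 1 log2 unit of 0 on both sides for 78 members and within 0.5 for 34, so for 11 members a change of more than 2-fold was within the interval.

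That lean rested in part on WT4. Without WT4, 53 of 89 members were higher in KO with a median of 0.04. Without both WT4 and WT5 it was 53 with a median of 0.06. The count also moved when any other single embryo was left out, from 56 without KO3 to 67 without WT1. The medians of those fits were 0.09 to 0.14. Within the high-bioB arrays 46 members were higher (51.7%, median 0.01), and within the low-bioB arrays 59 (66.3%, median 0.26). With the bioB set as a block, 66 were higher with a median of 0.12. No member passed the threshold under any of these settings. The median difference was 0.13 for complex I, 0.05 for its assembly factors, 0.03 for complex II, 0.16 for complex III, 0.03 for complex IV and 0.12 for ATP synthase. When 1 embryo was left out, the median ranged from -0.06 to 0.17 for the assembly factors and from -0.10 to 0.14 for complex II, so these 2 had no stable sign; for the other complexes it stayed above 0.

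**Figure D1:**
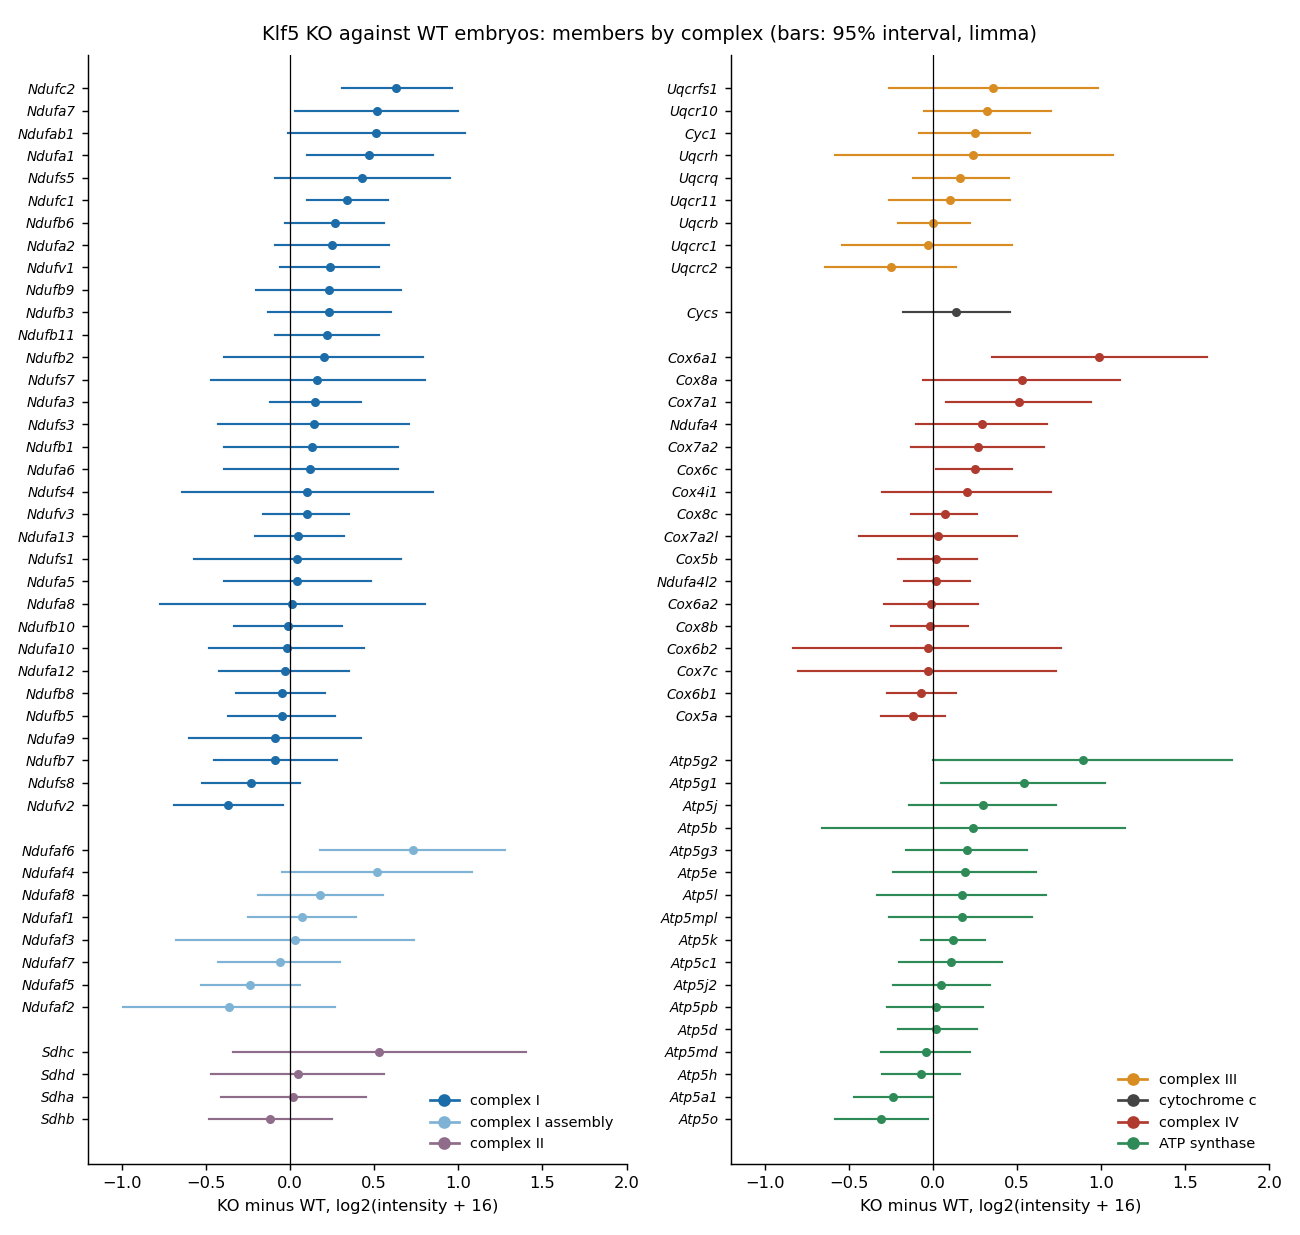
Difference between KO and WT embryos for the 89 tested members, in log2(intensity + 16), ordered within each complex; points are the limma estimates from 5 embryos a genotype and bars their 95% intervals. Most intervals cross 0, and Cox6a1 (0.99) and Atp5g2 (0.89) stand farthest to the right.

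Complex I, the NADH dehydrogenase, was represented by 33 tested subunits, of which 24 had a higher mean in KO embryos. Ndufc2, a small accessory subunit of the membrane arm, had the smallest p of all members. Its level was 11.80, 11.90, 11.38, 11.58 and 11.82 in WT1 to WT5, and 12.26, 12.54, 12.61, 12.01 and 12.23 in KO1 to KO5. Every KO embryo lay above every WT embryo, by a gap that was narrow between WT2 and KO4. The difference was 0.63 (SE 0.15, 95% interval 0.31 to 0.96, 1.55-fold), and its adjusted p of 0.127 missed the threshold. It was 0.71 within the high-bioB arrays, 0.58 within the low-bioB arrays and 0.56 to 0.72 when any one embryo was left out. Of the 3 other Ndufc2 probe sets, 2 read 0.97 and 1.03 higher (adjusted p 0.150 and 0.410), and the dimmest read -0.01.

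**Figure D2:**
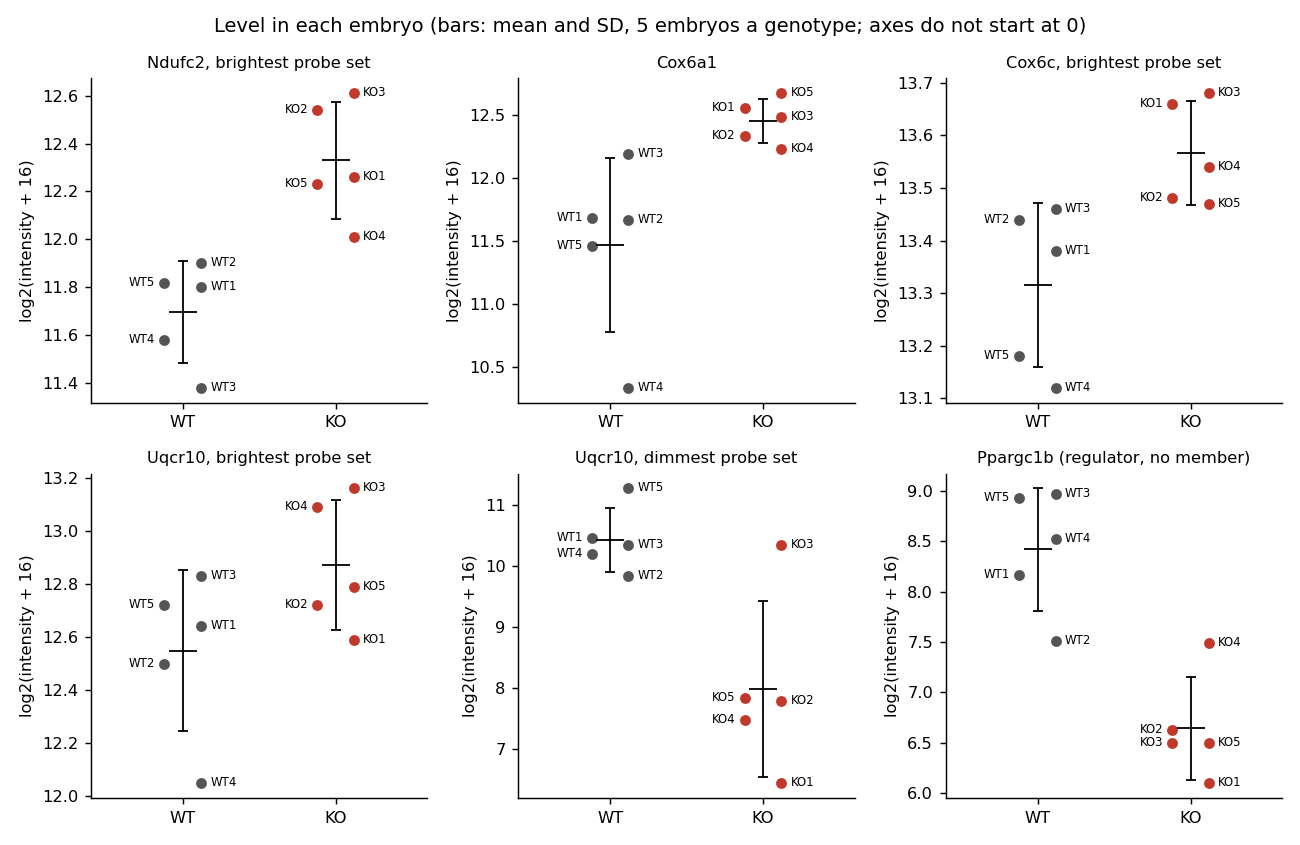
Level in each embryo, in log2(intensity + 16), for 3 members whose genotypes do not overlap, for the brightest and the dimmest Uqcr10 probe sets, and for Ppargc1b, a regulator outside the member list; points are embryos and bars the mean and SD of 5. Both Uqcr10 panels come from the same gene, and KO3 lies at the WT level (10.35) in the dimmest one.

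Ndufc1, the partner subunit that sits beside Ndufc2 in the membrane arm, read 12.70, 12.95, 12.93, 12.96 and 13.22 in WT and 13.13, 13.31, 13.32, 13.33 and 13.36 in KO embryos. WT5 alone reached into the KO range. The difference was 0.34 (SE 0.11, adjusted p 0.271), and the second Ndufc1 probe set read 0.60 (adjusted p 0.201). Ndufa7, an accessory subunit of the matrix arm, had 5 tested probe sets, all with a higher mean in KO embryos, by 0.38 to 0.82, and 4 of them at an unadjusted p under 0.05. Its brightest probe set read 10.96 to 11.73 in WT embryos and 11.64, 11.44, 12.12, 12.09 and 12.53 in KO embryos, so KO1 and KO2, the high-bioB arrays, overlapped the WT values while KO3, KO4 and KO5 lay above them. Ndufa1, a membrane-arm subunit encoded on the X chromosome, differed by 0.47 (SE 0.17, adjusted p 0.338), from 12.12 to 12.80 in WT embryos and from 12.67 to 13.36 in KO embryos.

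The subunits of complex I that carry its flavin and iron-sulphur clusters showed no shared direction. Ndufv1, which binds NADH and the flavin, differed by 0.24 (SE 0.13). Ndufv2, its partner with an iron-sulphur cluster, had the lowest difference of the complex: it read 11.57, 11.56, 11.71, 11.66 and 12.17 in WT and 11.16, 11.56, 11.17, 11.59 and 11.35 in KO embryos. The difference of -0.37 (SE 0.15, adjusted p 0.417) was -0.26 without WT5, which was the highest embryo. Ndufs1, the largest of these subunits, differed by 0.04, Ndufs7 by 0.16 and Ndufs8 by -0.23, with adjusted p between 0.655 and 0.992. Ndufs3, a core subunit of the matrix arm without a cluster, differed by 0.14 (SE 0.26). Ndufa3, the complex I member with the highest mean level, differed by 0.15 (12.98 to 13.35 in WT, 13.07 to 13.52 in KO). Between these, the other complex I subunits ranged from -0.09 (Ndufa9 and Ndufb7) to 0.51 (Ndufab1, the mitochondrial acyl carrier protein, adjusted p 0.510). Ndufs4 is an accessory subunit whose loss is known to cause Leigh-like disease. It ranged from 7.11 to 8.38 in WT embryos and from 6.96 to 8.64 in KO embryos, with a difference of 0.10. Its other tested probe sets differed in sign, at 0.55 (SE 0.34) and -0.38 (SE 0.35).

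Of the 8 Ndufaf genes, which help to assemble complex I and do not stay in it, 5 had a higher and 3 a lower mean in KO embryos. Ndufaf6 had the largest difference: 7.47, 7.05, 7.60, 6.73 and 6.29 in WT and 7.72, 7.83, 7.30, 8.04 and 7.91 in KO embryos, or 0.73 (SE 0.25, adjusted p 0.305). KO3 fell inside the WT range, and the difference was 0.38 without WT4 and WT5, the lowest pair. Ndufaf2 lay at the other end with -0.36 (SE 0.28, adjusted p 0.795), and Ndufaf8, the brightest of the group, at 0.18. Ndufaf4 was read by a pair of tested probe sets that differed in sign: the brighter one gave 0.52 (SE 0.26, adjusted p 0.556) and the dimmer one -0.52 (SE 0.25, adjusted p 0.544). Neither was called, and the gene has no single direction in these data.

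Complex II, succinate dehydrogenase, also works in the citric acid cycle and has no subunit encoded in mitochondrial DNA. Its flavin subunit Sdha differed by 0.02 (SE 0.20), its iron-sulphur subunit Sdhb by -0.12 (SE 0.17) and the membrane anchor Sdhd by 0.05 (SE 0.23). The other anchor, Sdhc, read 8.11, 8.17, 8.09, 6.43 and 6.36 in WT and 7.64, 8.07, 8.12, 7.74 and 8.24 in KO embryos. WT4 and WT5 were low, and the other 3 WT embryos lay among the KO embryos. The difference of 0.53 (SE 0.39, adjusted p 0.772) became -0.16 without these 2 arrays. A second Sdhc probe set did not show the low pair: it read 7.65 in WT4 and 7.76 in WT5, against 7.78 to 7.98 in the other WT embryos, and its genotype difference was 0.02.

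Complex III, the cytochrome bc1 complex, had 7 of 9 members with a higher mean in KO embryos. Uqcrb, a ubiquinone-binding subunit and the member of the complex with the highest mean level, ranged from 14.20 to 14.52 in WT embryos and from 14.26 to 14.51 in KO embryos, a difference of 0.00 (SE 0.10, 95% interval -0.21 to 0.22). The Rieske iron-sulphur protein Uqcrfs1 differed by 0.36 (SE 0.28, adjusted p 0.790), and by -0.09 without WT4 and WT5. The core protein Uqcrc2 lay at -0.25 (SE 0.18, adjusted p 0.753), Uqcrc1 at -0.03, and Cyc1, the cytochrome c1 subunit, at 0.25 (SE 0.15, adjusted p 0.678).

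Uqcr10, one of the small accessory subunits of complex III, was the member whose probe sets disagreed most. Its brightest probe set read 12.64, 12.50, 12.83, 12.05 and 12.72 in WT and 12.59, 12.72, 13.16, 13.09 and 12.79 in KO embryos, a difference of 0.32 (SE 0.17, adjusted p 0.585). The dimmest read 10.46, 9.84, 10.34, 10.20 and 11.27 in WT and 6.44, 7.79, 10.35, 7.48 and 7.84 in KO embryos. Here 4 KO embryos lay far below the WT embryos, and KO3 lay among them. The difference was -2.44 (SE 0.61, 95% interval -3.78 to -1.09, adjusted p 0.154). The middle probe set gave -1.34 (SE 0.38, adjusted p 0.203), again with KO3 (2050 units) within the WT range of 1430 to 3390 and the other KO embryos at 491 to 655. Which transcripts these probe sets read was not tested. Over all 162 tested probe sets of members, 0 passed the adjusted threshold, the unadjusted p was under 0.05 for 16 with a higher and 5 with a lower KO mean (5.21% and 4.84% of all tested probe sets), and 20 of the 45 members with more than 1 tested probe set had differences of both signs.

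Cytochrome c, the soluble carrier between complexes III and IV and a trigger of apoptosis once released, was read through Cycs. It lay at 12.38, 12.28, 11.88, 11.80 and 12.39 in WT and 12.41, 12.46, 12.13, 12.12 and 12.30 in KO embryos. These ranges overlap over most of their length, and the difference was 0.14 (SE 0.14, 95% interval -0.18 to 0.46, adjusted p 0.880). Dimmer tested Cycs probe sets gave 0.37 (SE 0.23) and -0.08 (SE 0.26). Cyct, the testis form, is outside the member rule. It read 43.0 to 152 units in WT and 37.5 to 121 in KO embryos, a difference of -0.10 (adjusted p 0.980).

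Complex IV, cytochrome c oxidase, has several subunits with a ubiquitous and a muscle, testis or lung form, and its tested members had a median difference of 0.03. Cox6a1, the ubiquitous form of subunit VIa, had the largest difference of all members. It read 11.68, 11.66, 12.19, 10.33 and 11.46 in WT1 to WT5 and 12.55, 12.33, 12.48, 12.23 and 12.67 in KO1 to KO5. All KO embryos lay above all WT embryos, with KO4 just above WT3 and with WT4 far below the rest. The difference was 0.99 (SE 0.29, 95% interval 0.35 to 1.63, 1.99-fold, adjusted p 0.223). It was 0.71 without WT4, 0.61 without WT4 and WT5, 0.60 within the high-bioB arrays and 1.56 within the low-bioB arrays. Its muscle form Cox6a2 ranged from 6.52 to 6.99 in WT embryos and from 6.44 to 7.0 in KO embryos, with a difference of -0.01 (SE 0.13).

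Cox6c, a small membrane subunit, read 13.38, 13.44, 13.46, 13.12 and 13.18 in WT and 13.66, 13.48, 13.68, 13.54 and 13.47 in KO embryos. The groups did not overlap, but KO5 (13.47) lay just above WT3 (13.46). The difference was 0.25 (SE 0.10, adjusted p 0.428) and 0.14 without WT4 and WT5, and a second probe set of similar brightness gave -0.10 (SE 0.09). Cox7a1, the heart and muscle form of subunit VIIa, ranged from 7.32 to 7.86 in WT embryos and from 7.61 to 8.65 in KO embryos (0.51, SE 0.19, adjusted p 0.376). The liver form Cox7a2 differed by 0.27 (SE 0.18, adjusted p 0.735) and Cox7a2l, which helps to join complexes III and IV, by 0.03 (SE 0.21).

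None of the remaining complex IV isoforms was called. Cox4i1, the general form of subunit IV, differed by 0.20 (SE 0.23, adjusted p 0.894), while the lung form Cox4i2 lay under the tested level in mean (5.54 in WT, 5.47 in KO). Cox6b1 ranged from 13.98 to 14.30 in WT embryos and from 13.95 to 14.20 in KO embryos (-0.07, SE 0.09), and its testis form Cox6b2 5.84 to 7.51 and 5.68 to 7.5 (-0.03, SE 0.36). Cox8a, the ubiquitous form of subunit VIII, gave 0.53 (SE 0.26, adjusted p 0.571), with WT4 lowest at 10.82, whereas Cox8b and Cox8c gave -0.02 and 0.07. Ndufa4, now counted as a complex IV subunit despite its name, gave 0.29 (SE 0.17, adjusted p 0.674), and its relative Ndufa4l2 gave 0.02. Cox5a, a subunit that faces the matrix, had the tightest WT values of all tested members, 13.73 to 13.78, and read 13.50 to 13.75 in KO embryos (-0.12, SE 0.08, adjusted p 0.754).

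**Figure D3:**
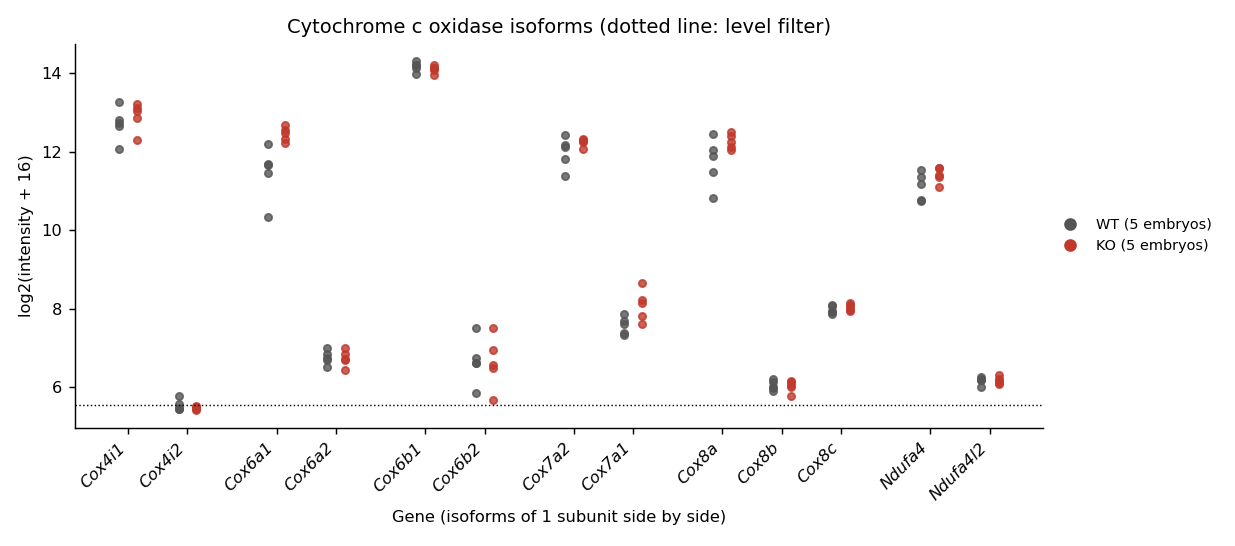
Level of 13 complex IV genes grouped by subunit, in log2(intensity + 16); each point is an embryo, 5 a genotype, and the dotted line is the level under which probe sets were not tested (5.55). Cox6a1 is the gene shown whose KO points all lie above its WT points, and levels of different genes are not comparable because each probe set has its own response.

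ATP synthase had 13 of 17 members with a higher mean in KO embryos. The ring of c subunits that turns with the proton flow is made from the products of 3 genes that encode the same mature protein. Atp5g2 read 9.77, 10.28, 10.32, 8.09 and 8.74 in WT and 10.55, 10.17, 10.32, 10.09 and 10.53 in KO embryos. WT4 and WT5 were low and the other WT embryos overlapped the KO embryos. The difference of 0.89 (SE 0.40, adjusted p 0.497) was 0.21 without WT4 and WT5. Atp5g1 followed the same array order, with 11.62 and 11.96 in WT4 and WT5 against 12.56 to 12.76 in the other WT embryos and 12.59 to 13.16 in KO embryos. Its difference of 0.54 (SE 0.22, adjusted p 0.430) was 0.20 without the low pair. Atp5g3 gave 0.20 (SE 0.16, adjusted p 0.801).

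The catalytic part of ATP synthase showed both signs. Atp5b, the catalytic beta subunit, gave 0.24 with the widest SE of all members (0.41): WT1, WT2 and WT3 read 11.59 to 12.04, WT4 and WT5 9.84 and 10.41, and the KO embryos 10.93 to 11.75. Without WT4 and WT5 the difference was -0.43. Atp5a1, the alpha subunit, read 12.36 to 12.60 in WT and 12.14, 12.27, 12.56, 12.36 and 12.15 in KO embryos, or -0.24 (SE 0.11, adjusted p 0.488). Its second probe set gave 0.03 (SE 0.23) and its dimmest -0.16 (SE 0.08). Atp5o, which links the catalytic head to the stator, had the lowest difference of the complex: it read 11.79, 11.57, 11.82, 11.44 and 11.70 in WT and 11.32, 11.39, 11.37, 11.06 and 11.66 in KO embryos. KO5 lay among the WT embryos and the other 4 below all of them, and the difference was -0.31 (SE 0.13, adjusted p 0.433). A second Atp5o probe set gave -0.04 (SE 0.27), with KO embryos at 9.89 to 10.61 inside the WT range of 9.42 to 10.88. The remaining members, among them Atp5c1 of the rotor stalk (0.11), Atp5h of the stator (-0.07) and Atp5k of the dimer interface (0.12), lay between -0.07 and 0.30, the latter Atp5j.

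Promoters were examined for letters known to bind nuclear respiratory factor 1 (NRF1), GABPA of the ETS family and YY1, which regulate many respiratory genes. RefSeq windows of build GRCm38.p6, from 250 bases before to 50 after a gene's start, were held for 75 of the 92 members. The NRF1 core GCATGCGC, on either strand, occurred in 12 of the 75 (16%), against 5.61% of 9979 other tested genes and 2.71% of all 32851 windows. The longer NRF1 palindrome, which contains the core, occurred in 6 (8.0% of members, 2.07% of other tested genes, 0.971% of all windows). The ETS letters CCGGAAG occurred in 19 (25.3%, against 18.6% of other tested genes and 8.86% of windows) and the YY1 letters AAGATGGC in 10 (13.3%, against 5.04% and 2.75%). By complex, the NRF1 core was found in 3 of 15 ATP synthase, 2 of 31 complex I and 2 of 5 complex III members, and the YY1 letters in 6 of 31 complex I, 3 of 15 ATP synthase and 0 of 13 complex IV members. A match is a description of letters and no evidence of binding here.

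The upstream sequences of the members with the smallest p and the largest difference are shown because they contrast, and that of Cycs because it is the textbook NRF1 target; capitals mark the NRF1 and ETS letters. They lie at chr7:97399753-97400002 on the plus strand (Ndufc2), chr5:115348959-115349208 on the minus strand (Cox6a1) and chr6:50566570-50566819 on the minus strand (Cycs).
Ndufc2: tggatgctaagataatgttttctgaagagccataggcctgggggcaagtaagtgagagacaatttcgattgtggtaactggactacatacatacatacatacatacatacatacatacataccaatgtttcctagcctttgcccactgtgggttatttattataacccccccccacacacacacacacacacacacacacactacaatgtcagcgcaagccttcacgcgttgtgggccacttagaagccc
Cox6a1: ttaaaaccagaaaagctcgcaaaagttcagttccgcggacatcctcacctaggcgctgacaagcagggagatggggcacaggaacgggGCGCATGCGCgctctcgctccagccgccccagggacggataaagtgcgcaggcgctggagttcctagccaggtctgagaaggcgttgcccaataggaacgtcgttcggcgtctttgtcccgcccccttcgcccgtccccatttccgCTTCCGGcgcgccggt
Cycs: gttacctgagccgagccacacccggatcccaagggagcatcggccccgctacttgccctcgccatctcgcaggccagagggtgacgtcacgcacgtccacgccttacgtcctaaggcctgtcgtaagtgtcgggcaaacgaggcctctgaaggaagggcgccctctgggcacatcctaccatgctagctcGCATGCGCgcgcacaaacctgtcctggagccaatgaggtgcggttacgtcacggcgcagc
The Ndufc2 window holds none of the letters searched. The Cox6a1 window holds the NRF1 palindrome 162 bases before the start and the ETS letters, on the opposite strand, 16 bases before it. The Cycs window holds the NRF1 core 60 bases before the start.

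The palindrome lay upstream of the start in 4 members, shown with 10 bases on each side to let their flanks be compared.
Atp5g2: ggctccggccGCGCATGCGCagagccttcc
Cox6a1: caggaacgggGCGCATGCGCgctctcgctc
Ndufaf4: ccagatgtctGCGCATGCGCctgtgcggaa
Atp5k: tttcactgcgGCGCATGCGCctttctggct
These are chr15:102671070-102671099 (minus strand), chr5:115349101-115349130 (minus), chr4:24897960-24897989 (plus) and chr5:108434430-108434459 (minus), with the palindrome 42, 162, 113 and 50 bases before the start. The palindrome lay after the start in the other 2 members that hold it, Ndufaf5 and Uqcrc1. The genotype differences of the 6 genes had both signs and none passed the test: 0.89 for Atp5g2, 0.99 for Cox6a1, 0.12 for Atp5k, 0.52 or -0.52 for Ndufaf4 by probe set, -0.24 for Ndufaf5 and -0.03 for Uqcrc1.

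Among genes that regulate or build the chain, outside the member rule, Ppargc1b stood out. It encodes PGC-1 beta, a coactivator that raises mitochondrial gene expression with the estrogen-related receptors and NRF1. Its level was 8.16, 7.51, 8.97, 8.52 and 8.93 in WT and 6.1, 6.63, 6.5, 7.49 and 6.5 in KO embryos. Every KO embryo lay below every WT embryo, though KO4 came within 0.02 of WT2. The difference was -1.77 (SE 0.32, 95% interval -2.48 to -1.06, 3.42-fold) with an adjusted p of 0.0515, just outside the threshold. It was -1.85 within the high-bioB arrays (adjusted p 0.381) and -1.89 within the low-bioB arrays (adjusted p 0.140). The adjusted p missed the threshold under 18 of 24 alternatives and passed under 6, over a range of 0.0329 to 0.381. It was 0.0354 with a filter at the 60th percentile and 0.0329 without WT2, but 0.0686 with quantile normalization, 0.147 without WT4 and WT5, and 0.0937 to 0.126 in the 8 of 10 fits without 1 embryo that missed it.

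None of the 15 tested regulators, Ppargc1b included, passed the threshold in the main fit. Esrra, the estrogen-related receptor alpha, lay at -0.37 (SE 0.12, adjusted p 0.275), Nrf1 at 0.17, Gabpa at -0.01 and Yy1 at 0.07. Of 36 tested assembly and insertion factors, 0 passed, with 2 higher and 3 lower in KO embryos at an unadjusted p below 0.05; the smallest p was that of Sco1, a copper chaperone for complex IV, at -1.11 (SE 0.34, adjusted p 0.248). Of 14 tested genes that stand for mitochondrial mass, 0 passed, with 4 lower and 1 higher in KO embryos at an unadjusted p below 0.05 (5.78% and 5.36% of all genes). The 4 were the matrix chaperones Hspa9 (-0.45, SE 0.12, adjusted p 0.191) and Hspd1 (-0.43, adjusted p 0.294), the import receptor Tomm22 (-0.29, adjusted p 0.285) and the outer-membrane channel Vdac1 (-0.29, adjusted p 0.444). The 1 was Slc25a5, an ADP and ATP carrier (0.59, SE 0.18, adjusted p 0.237). A single transcript encoded in mitochondrial DNA could be read by symbol, ND5 of complex I, at -0.03 (SE 0.23).

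As a share of the array's total intensity, the members summed to 2.92, 2.87, 2.96, 3.03 and 3.44% in WT and 3.16, 3.04, 3.25, 3.24 and 3.42% in KO embryos (3.04 ± 0.229% and 3.22 ± 0.139%, SD, n = 5 each). WT5 had the highest share of all and the genotypes overlapped. The median deviation of the members from their 10-embryo mean was -0.27 in WT4 and -0.04 to 0.16 in the other 9 embryos, while all genes stayed between -0.02 and 0.02. In WT4 it was -0.24 for complex I, -0.54 for complex II (4 genes), -0.32 for complex III, -0.33 for ATP synthase and -0.02 for complex IV. The complex II median rests on the brightest probe sets, and second ones read otherwise. The second Sdhd probe set was highest among WT embryos in WT4 (7.24). That of Sdha read 9.41 in WT4, above WT2 (9.36). That of Sdhc was lowest among WT embryos in WT4 (7.65), but near WT5 (7.76). The complex IV median spans genes that read differently. WT4 was the lowest of the 10 embryos for Cox4i1, Cox6a1, Cox6c, Cox7a2 and Cox8a. Other bright genes were not low in WT4 by their brightest probe set, such as Cox7a2l (12.54), Cox6b1 (14.21), Cox5a (13.76) and Cox5b (13.32). Isoforms near the tested level, such as Cox8b (6.13 in WT4) and Ndufa4l2 (6.25), were not low there either. WT4 was lowest for 35 of the 89 members in all. Among them were 13 of 33 for complex I, 5 of 9 for complex III, 5 of 17 for complex IV and 9 of 17 for ATP synthase. The share of all genes that were lowest in WT4 was not counted, so these counts have no background beside them. In KO5 ATP synthase stood at 0.32 and complex I at 0.22. The SD among WT embryos exceeded that among KO embryos for 58 of 89 members (65.2%, against 55.8% of all genes), with medians of 0.29 and 0.22.

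**Figure D4:**
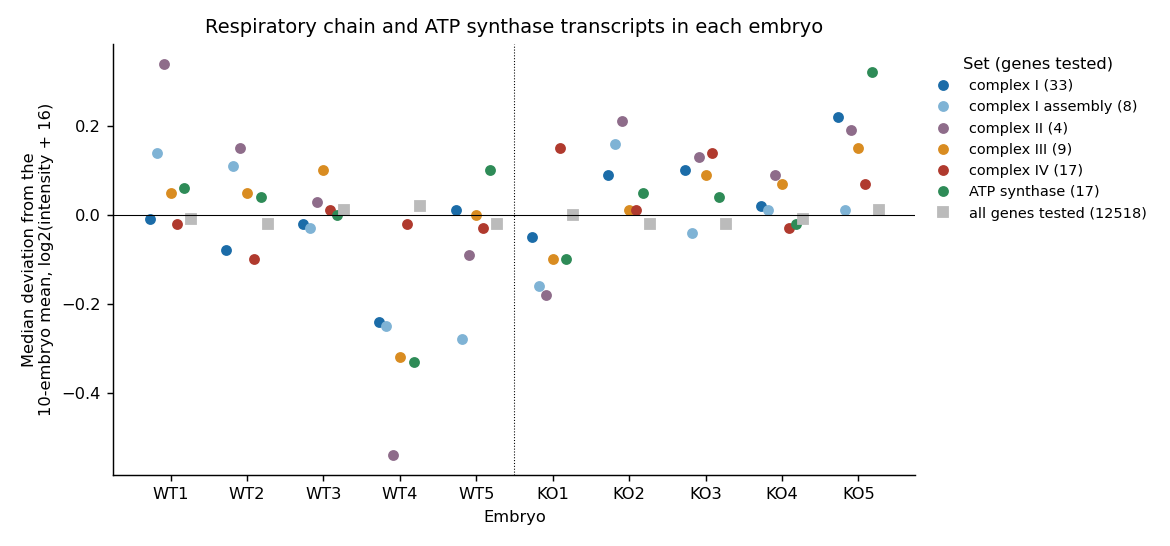
Median deviation of the tested genes of each complex from their 10-embryo mean, in log2(intensity + 16), for each WT and KO embryo; grey squares are all 12518 tested genes. Each gene is read from its brightest probe set. The medians of complexes I, II (4 genes) and III and of ATP synthase are lowest in WT4 (-0.24 to -0.54). That of complex IV is -0.02 there, although 5 of its 17 genes have their lowest value in WT4. Dimmer probe sets of some genes of complexes II and IV read otherwise in WT4.

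The WT embryos also differed between the sets of arrays. WT4 and WT5, the low-bioB arrays, were compared with WT1, WT2 and WT3 in a limma comparison added after the values were seen; 844 of 23174 probe sets (3.64%) passed, 784 of them lower in WT4 and WT5. Of 89 members, 6 passed, all lower: Sdhc (-1.73, adjusted p 0.0243), Atp5g2 (-1.71, 0.0444), Atp5b (-1.68, 0.0353), Uqcrfs1 (-1.14, 0.0404), Ndufs3 (-1.08, 0.0454) and Ndufs1 (-1.07, 0.0373). Complex IV members all missed the threshold and showed both signs. Those with lower means in WT4 and WT5 included Cox8a (-0.98, adjusted p 0.122), Cox6a1 (-0.94, 0.229), Cox7a2 (-0.64, 0.142) and Ndufa4 (-0.60, 0.103). Those with higher means included Cox7a2l (0.40, adjusted p 0.133), Cox7a1 (0.27, 0.409), Cox8b (0.21, 0.373) and Cox6b1 (0.15, 0.531). With quantile normalization 1 member passed. With 1 WT embryo left out, 0 to 1 members and 0 to 164 probe sets of all passed, in a comparison of 4 arrays. The highest values on the other side were 0.58 for Ndufb9 and for Ndufa12, which were not called. The same comparison within KO embryos called 0 of 23174 probe sets (0%). A limma test of whether the array difference itself differed between genotypes called 0 of 89 members after adjustment (smallest adjusted p 0.0977). At an unadjusted p under 0.05 there were 21 members. The share of all probe sets at that p was not counted, so the 21 cannot be compared with the rest of the array. The 3′ minus middle signal of the beta-actin control was 4.61 in WT4 and 3.96 in WT5, against 2.68 to 3.51 on the other 8 arrays; its part in these values was not tested.

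That array difference varied with the kind of probe set. Among WT embryos the median of low-bioB minus high-bioB arrays was -0.48 for the 36 members read by plain probe sets (name ending _at), 0.05 for the 28 read by _a_at sets, -0.13 for the 15 read by _s_at sets and 0.18 for the 10 read by _x_at sets, which cross-hybridise more. Over all tested probe sets the same medians were 0.04, -0.11, -0.08 and 0.14. Within a gene the reading could also split: for Cox5a the brightest probe set was flat in WT embryos, while the second read 11.75 and 12.04 in WT4 and WT5 and 12.77 to 12.89 in the others. Ndufb11, a membrane-arm subunit of complex I, likewise had a brightest probe set at 13.31 and 13.27 in WT4 and WT5, and another at 9.93 and 10.29, under the 10.83 to 11.84 of the other WT embryos.

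**Figure D5:**
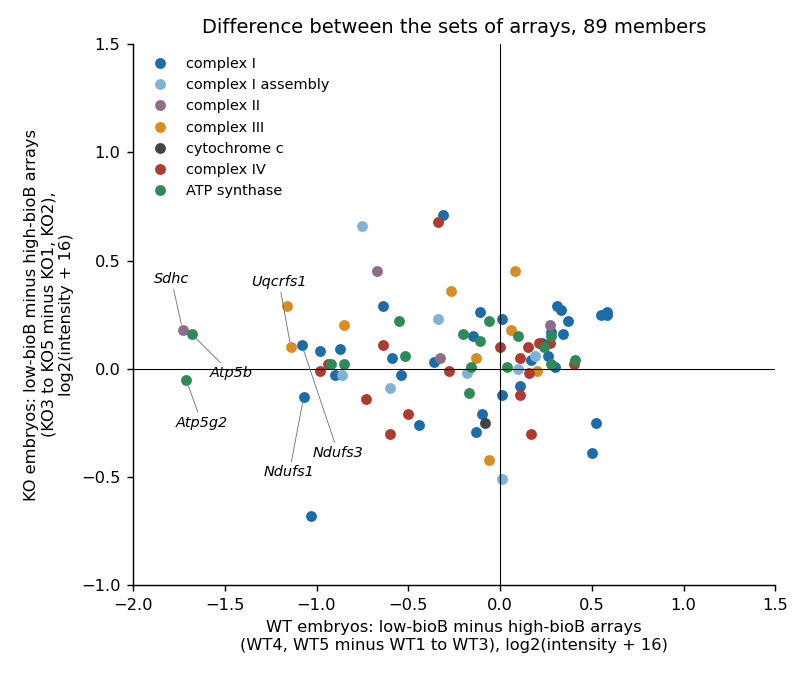
Difference between low-bioB and high-bioB arrays for the 89 tested members, among WT embryos (horizontal axis) and among KO embryos (vertical axis), in log2(intensity + 16); colours mark the complex. The 6 named members, all past the threshold among WT embryos, lie at -1.07 to -1.73 on the horizontal axis and within 0.2 of 0 on the vertical one.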

How the data were processed

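The RNA of single embryos was turned into cDNA by the method of Kurimoto and colleagues and read on Affymetrix arrays, per the labels' protocols, and analysed by the authors in GeneSpring GX, per the series' description. The deposited values were linear intensities, 1 per probe set and array; how background was corrected, probes summarised and arrays normalized is not stated in the labels. The median intensity per array was 40.0 to 43.6. For this report, 53 control probe sets were left out of 38676, and log2(intensity + 16) was fitted with limma 3.58.1 (R 4.3.3), two-sided, with Benjamini-Hochberg adjustment over 23174 probe sets above the 40th percentile (5.55). Of the probe sets that are no controls, 30854 had 1 symbol, 781 several and 6988 none in the platform annotation; 7 labels with several symbols held a member name and were not used. The number of arrays limits the precision. The fit was tested on simulated data. Named genes were every member past the threshold, in each complex the member of highest mean level, of largest difference in each direction and of smallest p, isoforms, members whose genotypes do not overlap or whose probe sets disagree, the members of widest and narrowest WT spread, and in each other list the gene of smallest p; further members were named after their values were seen. The members and lists were chosen with earlier results of these data known. Alternatives were other normalizations, filters, pseudocounts, priors, array weights, blocks, sets of arrays, the mean of all probe sets of a gene, and leaving out embryos. Same-numbered WT and KO embryos correlated at -0.03 to 0.18 in their deviations, so the numbers were not used as pairs.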

Additional observations from a re-analysis of the deposited data

Results flagged for a closer look

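In 5 of 86 groups of 5 embryos, 1 embryo stood far from the others by Dixon's criterion, where chance gives about 1 in 20. Ndufv2 read 12.17 in WT5 and 11.56 to 11.71 in the other WT embryos. Atp5k read 14.21 in KO3 and 14.08 to 14.11 in the other KO embryos. Cox7b2, under the tested level, read 5.62 in WT3 and 4.57 to 4.63 in the other WT embryos. The median deviation of complex III was -0.32 in WT4 and 0.00 to 0.10 in the other WT embryos, and that of ATP synthase was -0.33 in WT4 and 0.00 to 0.10 in the others.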

How the results depend on the processing

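Under all 24 alternatives, 0 members passed the adjusted threshold, with a smallest adjusted p of 0.0974 to 0.445. The number of embryos limits these calls, and probe sets near background measure little. The embryo number as a replicate block gave a median of 0.11 over the members and 24 called probe sets in all, against 85 without it. Members at an unadjusted p under 0.05 and higher in KO numbered 4 within the high-bioB arrays and 21 within the low-bioB arrays, against 9. Of all 23174 probe sets, 790 and 2372 were higher at that limma p, against 1208. Members lower in KO numbered 3 in the main fit. They numbered 1 with the 60th percentile filter, with the trended robust prior and with the mean of all tested probe sets. Over all features, 847 of 15449, 1096 of 23174 and 693 of 12518 were lower in those fits. Lower members numbered 0 within the low-bioB arrays, 5 without WT4 and WT5, and 0 to 4 when 1 embryo was left out. All lower probe sets numbered 1140, 1788 and 977 to 1142 there, against 1121. Within the low-bioB arrays the median difference was 0.26 over all members, 0.25 for complex I, 0.32 for its assembly factors, 0.43 for complex II, 0.38 for complex III and 0.35 for complex IV. Within the high-bioB arrays it was -0.12 for the assembly factors, 0.00 for complex III, 0.14 for complex IV and -0.04 for ATP synthase. It was -0.11 for the assembly factors without WT4 and WT5, and 0.13 for complex IV with the 60th percentile filter. The 6 members lower in WT4 and WT5 became 1 under quantile normalization, 2 without the level filter, 2 with the trended robust prior and 0 to 1 when 1 WT embryo was left out; those fits hold 4 arrays, 1 of them alone in its set where WT4 or WT5 was left out and assumed to vary like the rest, and called 0 to 164 probe sets in all against 844. The cause of the other shifts was not tested.

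Of 958 values of named genes under alternatives, 46 changed sign, none of them a called difference, and the cause was not tested. Within the high-bioB arrays they were -0.05 for Ndufa3, -0.27 for Sdhc, -0.15 for Uqcrfs1, 0.24 for Cox6a2, -0.06 for Cox7a2, -0.04 for Atp5g3, -0.53 for Atp5b and 0.16 for ND5. Without WT4 and WT5 they were -0.16 for Sdhc, -0.09 for Uqcrfs1, 0.06 for Cox6a2, 0.06 for Cox8b, -0.01 for Atp5g3 and -0.43 for Atp5b. Within the low-bioB arrays they were 0.35 for Cox6b2, -0.21 for Cox7a2l, -0.04 for Cox8c and -0.09 for Ndufa4l2. The mean of all tested probe sets gave -1.15 for Uqcr10 and 0.06 for Cox5a. The bioB block gave 0.05 for Cox6b2, -0.01 for Cox7a2l and 0.05 for ND5, array weights 0.01 for Cox8b and -0.02 for Atp5b, and quantile normalization 0.01 for Cox6b2. With 1 embryo left out, the differences ranged from -0.08 to 0.47 for Atp5b, -0.08 to 0.06 for Cox6a2, -0.25 to 0.21 for Cox6b2, -0.07 to 0.20 for Cox7a2l, -0.06 to 0.04 for Cox8b, -0.02 to 0.05 for Ndufa4l2 and -0.17 to 0.14 for ND5. Klf5 was -5.05 within the low-bioB arrays (adjusted limma p 0.0951), and Ppargc1b moved to the other side of the threshold under 6 alternatives, with values of -1.77 to -2.0.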
